A study of Mus musculus with 2 samples.

Results

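The 35 genes described here encode the machinery that carries new secretory proteins into the endoplasmic reticulum (ER) and attaches their first sugars. They were chosen by name as subunits or partners of the signal recognition particle and its receptor, the Sec61 translocon, signal peptidase and oligosaccharyltransferase, not by their values. All 35 were found among the 32285 genes of both count tables, and all 35 passed the minimum of 10 CPM (counts after every library sum is brought to the same size) and 20 UMIs in every comparison below. RNA was counted as unique molecular identifiers (UMIs, 1 per captured transcript end) in single pancreatic islet cells of 12-week-old female mice on a C57BL/6 background. The 2 groups were Spopfl/fl mice, which carry the floxed Spop gene and serve as controls, and SpopβKO mice, in which Spop, a substrate adaptor of a ubiquitin ligase, was deleted in beta cells per the series description. Both groups share the floxed gene, the sex, the age and 3 days of culture in RPMI medium with 10 mM glucose before dispersal. Each group is 1 library, and how many mice it pooled, which Cre line was used and which exons were removed are not given in the sources used here.

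A signal recognition particle binds the signal sequence of a nascent secretory protein and docks at its receptor in the ER membrane. The chain then enters the Sec61 channel, signal peptidase removes the signal sequence, and oligosaccharyltransferase moves a preassembled sugar chain onto asparagine residues. Islet endocrine cells make hormone precursors that all take this route, and in beta cells preproinsulin is the main cargo. Insulin itself carries no N-linked sugar, whereas the convertases and receptors made in the same cells do.

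The control library held 7768 barcodes and the library labelled SpopβKO, called the knockout-labelled library here, held 10033. After requiring 500 genes and at most 15% mitochondrial UMIs, 6850 and 8842 cells remained, with medians of 8870 and 7638.5 UMIs. The libraries shared 21 barcodes, of which 14 were among the kept cells (0.204% of the control and 0.158% of the knockout-labelled cells). Cells were grouped by their leading hormone, which had to hold 1% of UMIs and 2 times the next hormone. This gave 3871 and 6995 insulin-led cells, 1744 and 1022 glucagon-led cells and 115 and 106 polypeptide-led cells in the control and knockout-labelled libraries. The 7 alpha-cell markers, which include Gcg, summed to 4659 CPM in control insulin-led cells and 116640 in control glucagon-led cells, and the 9 beta-cell markers, which include both insulin genes, to 179740 and 7078. Insulin-led cells were also cut at the quartiles of their insulin share (4.09%, 8.69% and 19.3% of UMIs) into bands 1 to 4. Spop itself stood at 74.8 and 93.7 CPM in insulin-led cells of the control and the knockout-labelled library. These counts mark the 3′ end of the transcript, so without the deleted exons they do not check the genotype, and directions below belong to the labelled libraries.

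Levels are CPM over the UMIs of genes other than Ins1, Ins2, Gcg, Sst and Ppy, scaled by the trimmed mean of M values (TMM). Each transcript gives 1 captured end, so levels were not divided by gene length. Ratios are on the log2 scale, and 95% intervals are exact but cover counting error only. With 1 library per genotype no test of the genotype was possible, and a ratio past 1.3-fold, or a level said to rise or fall, is a description of these libraries. Within a class, a lower level in the sum cannot be told apart from fewer cells that express the gene.

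In insulin-led cells the level of all 35 genes together was 8368 CPM for control and 9185 CPM for knockout-labelled cells. Glucagon-led cells held less of this machinery, at 6484 and 7703. Polypeptide-led cells had 9421 and 9228, and the few non-endocrine cells (67 and 127) had 8387 and 9889. The sum was thus higher in insulin-led than in glucagon-led cells of either library. Within insulin-led cells it rose at each step of the insulin bands, from 7430.1 to 9081 in the control library and from 8073 to 10021 in the knockout-labelled library.

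**Figure D1:**
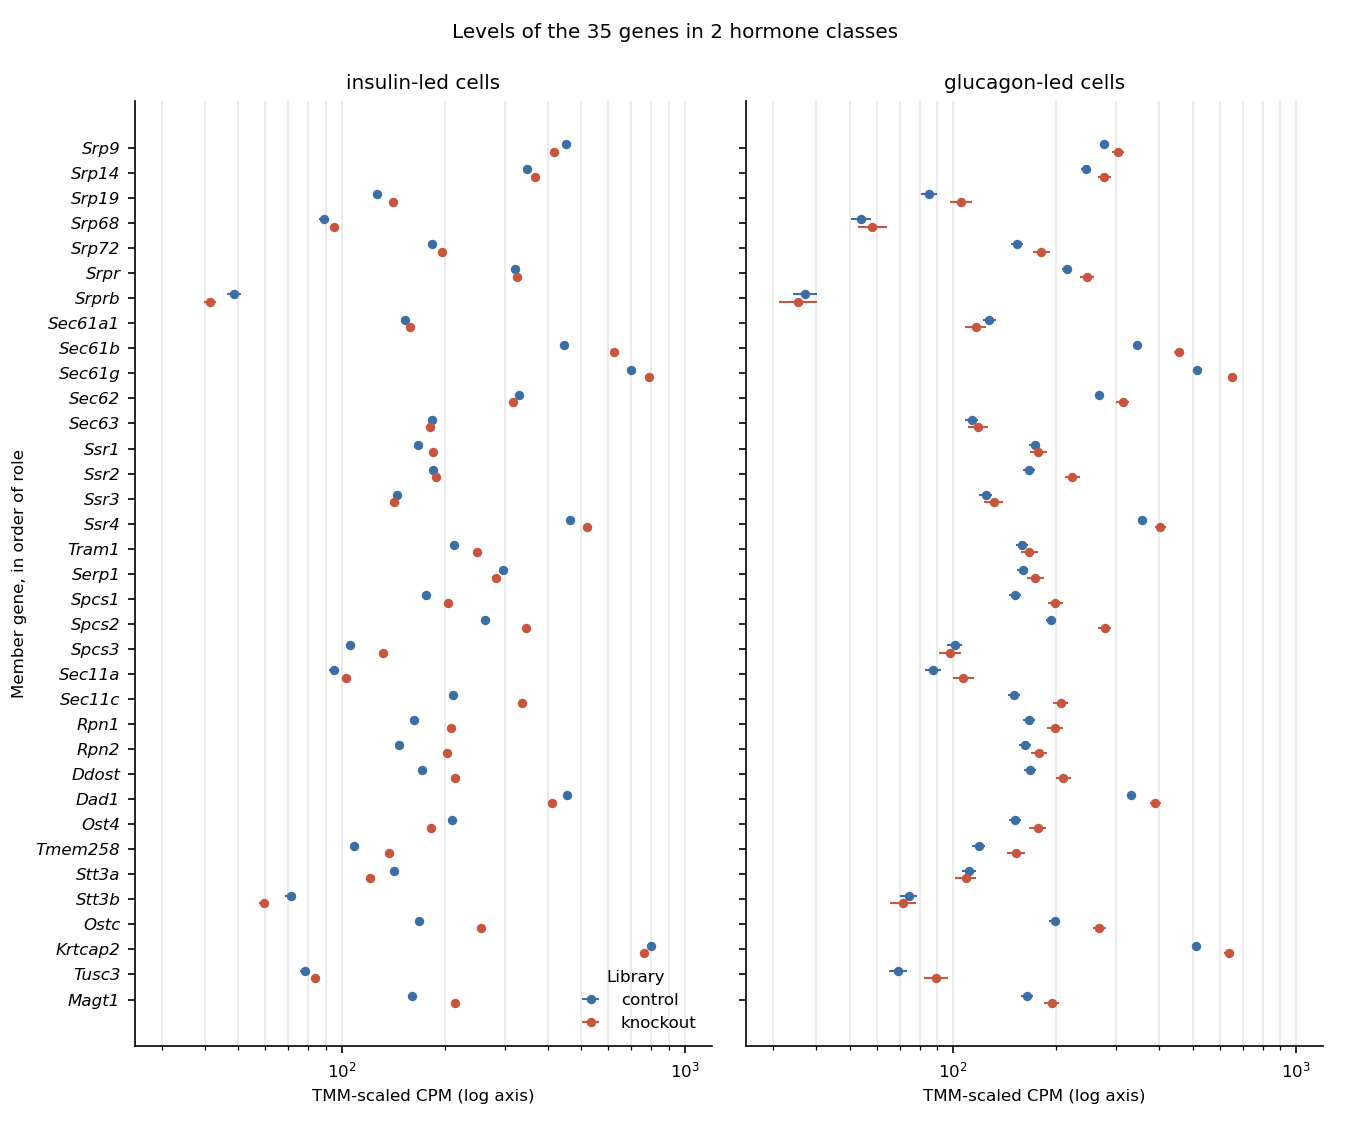
Level of each of the 35 genes (CPM, log axis) in insulin-led cells (left) and glucagon-led cells (right) of the control (blue) and knockout-labelled (red) library, with bars for the 95% counting interval where wider than the point. Krtcap2 and Sec61g are the highest in insulin-led cells and Srprb the lowest, and most genes sit further left in glucagon-led cells.

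The signal recognition particle genes were close to equal between the libraries in insulin-led cells. Values are given for the control library and then the knockout-labelled library. Srp9 and Srp14, which form the domain that slows elongation, stood at 453 and 417 CPM for Srp9 and at 347 and 367 CPM for Srp14. Srp19, an assembly protein of the particle, had 127 and 141. Of the pair that binds the particle's RNA as a dimer, Srp68 had 89.0 and 95.1 and Srp72 had 183 and 197. Summed over the 5 genes the log2 ratio was 0.022. Srp9 alone was lower in the knockout-labelled library, at -0.12 (95% interval -0.15 to -0.091). The receptor subunits were unequal in level: Srpr, the alpha subunit that meets the particle, had 321 and 325, and Srprb, its membrane anchor and the lowest member of all, had 48.6 and 41.3, a ratio of -0.24 (95% interval -0.32 to -0.15).

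Among the channel genes the beta subunit stood apart. Sec61a1, the pore itself, had 153 and 158, Sec61g had 697 and 789 and Sec61b had 444 and 623 CPM. The ratio of Sec61b was 0.49 (95% interval 0.46 to 0.52), and those of Sec61a1 and Sec61g were 0.05 and 0.18. Sec62 and Sec63, which help short and post-translationally imported chains into the channel, differed little between the libraries, with 329.5 and 316 for Sec62 and 183 and 181 for Sec63. The 4 genes of the translocon-associated protein complex (TRAP), which assists entry of weak signal sequences such as that of preproinsulin, had 168 and 185 for Ssr1, 185 and 188 for Ssr2, 145 and 142 for Ssr3 and 464 and 519 for Ssr4. Tram1, another channel partner, had 213 and 248, and Serp1, a small protein that binds the translocon under ER stress, had 295 and 282.

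The signal peptidase genes together had 851 and 1119 CPM in insulin-led cells, a log2 ratio of 0.40, the largest ratio of the role groups there. In CPM the channel genes differed by more, with 1294 and 1570.4. All 5 of its genes were higher in the knockout-labelled library, by unequal amounts. Of the alternative catalytic subunits, Sec11c had 212 and 335, a ratio of 0.66 (95% interval 0.62 to 0.70), and Sec11a had 94.8 and 103, a ratio of 0.12 (95% interval 0.057 to 0.18). Of the non-catalytic subunits, Spcs2 had 263 and 346, Spcs3 had 106 and 132 and Spcs1 had 176 and 204. Their ratios were 0.40, 0.31 and 0.22.

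The oligosaccharyltransferase genes were split in direction. Scaffold subunits were higher in the knockout-labelled library: Rpn1 had 163 and 209, Rpn2 148 and 203 and Ddost 172 and 214 CPM, with ratios of 0.36, 0.46 and 0.32. The small subunit Tmem258 had 109 and 138 and also a positive ratio, 0.34. The other small shared subunits were lower there, with Dad1 at 455 and 410.4 and Ost4 at 210.1 and 183. Both catalytic subunits were lower as well, Stt3a with 142 and 121, a ratio of -0.23 (95% interval -0.28 to -0.18), and Stt3b with 71.1 and 59.2, a ratio of -0.26 (95% interval -0.34 to -0.19). STT3A works at the translocon on entering chains and STT3B on sites that were skipped. Of the subunits that dock the STT3A enzyme at the channel, Ostc had 169 and 255 and a ratio of 0.59 (95% interval 0.55 to 0.64), while Krtcap2, the highest member in the control library, had 797 and 762. Of the oxidoreductases of the STT3B enzyme, Magt1 had 161 and 214, a ratio of 0.41 (95% interval 0.37 to 0.45), and Tusc3 had 78.3 and 83.6.

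Counted over the machinery, 6 of 35 genes were at least 1.3-fold higher in insulin-led cells of the knockout-labelled library (Sec11c, Ostc, Sec61b, Rpn2, Magt1 and Spcs2), where 12.9% of all genes compared were. None was 1.3-fold lower, where 11.9% of all genes were. The share higher is near the background. The median ratio of the 35 genes was 0.10, beside -0.049 over all genes. The intervals of Magt1 and Spcs2 reached below 1.3-fold. With each cell weighted equally the median was 0.0488, and in cells without an acinar or immune marker UMI, a restriction added after the data were seen, 0.0559. By insulin band, 2 genes were higher and 1 lower in band 1, where 7.18% and 8.13% of all genes were, 2 and 0 in band 2, where 10.3% and 13.3% were, and 6 and 1 in band 3, where 15.9% and 15.3% were. Both the members' counts and the shares over all genes were larger in the higher bands. Depth differed most in band 2, with medians of 10122 UMIs in control and 3033 in knockout-labelled cells, and its part was not tested. The count higher ran from 1 to 25 over 7 clusters of insulin-led cells compared between the libraries, with 9.39% to 35.2% of all genes. The libraries fill these clusters unequally: cluster 1 held 31.7% of control and 15.3% of knockout-labelled insulin-led cells, cluster 2 8.29% and 23.7%, and cluster 6 3.67% and 11.4%. In cluster 1 the median was -0.269, beside -0.10 over all genes, and 1 gene was higher and 8 lower, where 12.4% and 19.9% of all genes were. The count of 25 came from cluster 5, whose cells had a median of 1434.5 UMIs, and where 35.2% of all genes were higher. Sec11c, Ostc and Magt1 were the members higher in the knockout-labelled library in all 7 clusters, and 0 were lower in all 7. In all 4 bands 15 members were higher and 5 were lower (Srprb, Serp1, Dad1, Ost4 and Stt3a). The share of all genes with such patterns was not counted, so these counts have no background.

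The summed markers of other cell types moved with the library in these cells. The immune list (7 genes) totalled 13.8 CPM in control cells, with Ptprc at 0, and 68.3 in knockout-labelled cells, and the acinar list (10 genes) 8.11 and 44.3 (Prss1 and Amy2a5 at 0 in both). Ductal markers summed to 274 and 459.8, and the alpha-cell markers to 4659 and 3515. By gene, 7 immune and 6 ductal markers were higher in the knockout-labelled library and 0 lower. The acinar and alpha-cell lists were mixed, with 4 acinar markers higher and 4 lower, and 3 alpha-cell markers higher and 4 lower. Of the lists not summed above, 5 delta-cell, 4 pancreatic polypeptide and 6 mesenchymal markers were higher and 0 lower. For the endothelial list 5 were higher and 1 lower. In insulin-led cells without any acinar or immune marker UMI, 2 genes were 1.3-fold higher and 1 was lower, where 8.71% and 10.6% of all genes were; Sec11c was at 0.64, Ostc at 0.49, Spcs2 at 0.35, Magt1 at 0.29, Sec61b at 0.27 and Rpn2 at 0.20. The ratios of other members moved too: in those cells Ddost was at 0.21, Rpn1 at 0.18, Tmem258 at 0.15, Spcs3 at 0.089 and Sec61g at 0.037. Some signs changed. Ssr1, Sec61a1, Ssr2 and Srpr, higher with all cells, were at -0.045, -0.11, -0.081 and -0.019. Krtcap2 and Sec63, lower with all cells, were at 0.056 and 0.0058. Of these, the intervals of Sec61a1, Ssr2 and Krtcap2 lay clear of 0. The restriction left out 14.9% of control and 34.6% of knockout-labelled insulin-led cells, and it takes shallower cells. Control cells with such a UMI had a median of 16000 UMIs and those without 8022. In the knockout-labelled library the medians were 14083 and 5160. Marker content and depth cannot be told apart in these ratios. In cluster 1 Rpn1, Rpn2, Ddost, Tmem258 and Spcs3 were lower in the knockout-labelled library, at -0.15, -0.21, -0.10, -0.42 and -0.24. Among insulin-led cells under 2% mitochondrial UMIs 2 were higher, where 11.4% of all genes were, and among cells at 2% to 15% mitochondrial UMIs 10 were higher, where 14.9% were. The part of these markers and of mitochondrial content in the ratios was not tested.

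**Figure D2:**
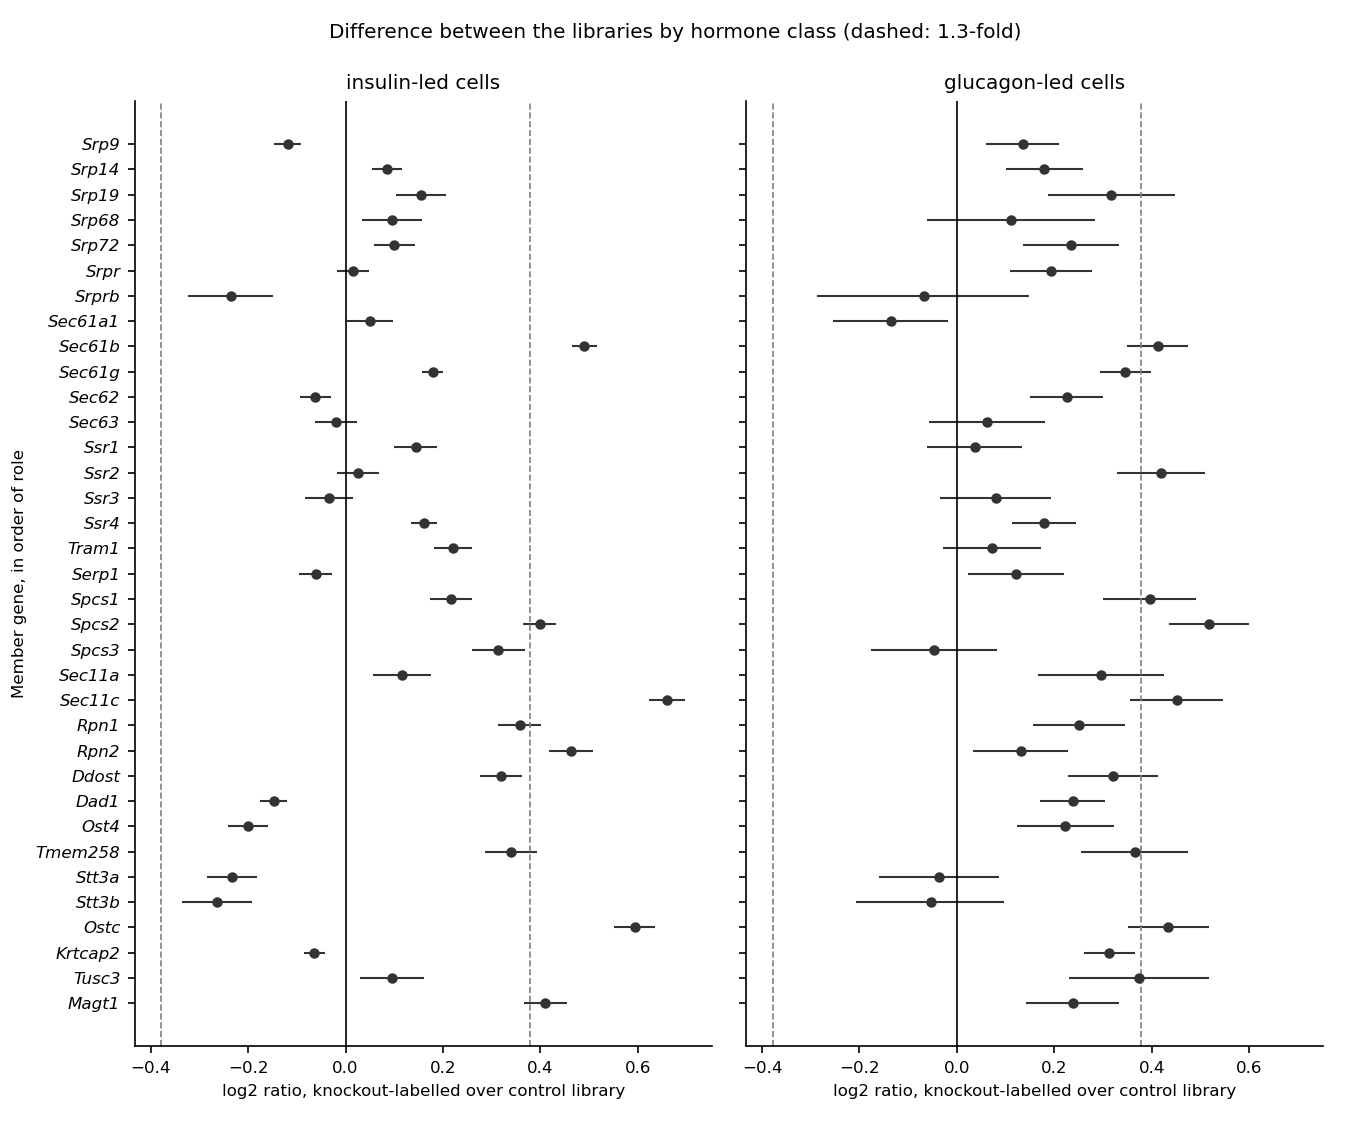
Log2 ratio of the knockout-labelled over the control library for each gene in insulin-led cells (left) and glucagon-led cells (right), with 95% counting intervals; the solid line marks no difference and the dashed lines 1.3-fold. Sec11c, Ostc, Sec61b and Spcs2 lie above 1.3-fold in both panels, and Stt3b, Srprb and Stt3a are lowest in insulin-led cells.

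In glucagon-led cells the ratio was positive for 30 of the 35 genes, where it was for 49.5% of all genes. The median was 0.23, beside -0.0032 over all genes. At least 1.3-fold higher were 6 of 35, where 4.13% of all genes were, and 0 were lower, where 3.87% were. The 6 were Spcs2, with 193 and 277 CPM and a ratio of 0.52 (95% interval 0.44 to 0.60), Sec11c, with 151 and 206 and 0.45, Ostc, with 198 and 268 and 0.43, Ssr2, with 167 and 223 and 0.42, Sec61b, with 344 and 457 and 0.41, and Spcs1, with 151 and 199 and 0.40. Sec11c, Ostc, Sec61b and Spcs2 were past 1.3-fold in both classes, which come from the same 2 libraries, and the labels place the deletion in beta cells. Insulin transcripts were also higher in these glucagon-led cells, with Ins1 at 0.0408% and 0.22% of UMIs; free RNA from insulin-led cells and transcripts of the cells themselves cannot be told apart here. In the same cells the ductal markers summed to 232 and 485 CPM, the immune markers to 12.9 and 26.1 and the acinar markers to 35.2 and 15.2. By gene, 6 ductal markers were higher and 0 lower, 4 immune markers higher and 3 lower, and 1 acinar marker higher and 7 lower. The part of these markers was not tested. In polypeptide-led cells the median was -0.029 and Sec61b was 613 and 606. In cells with at least 0.2% of UMIs from Sst (82 and 88 cells, a gate set after the data were seen, since the 1% gate left 7 and 8), the median was 0.10 and Sec61b was 514 and 684.

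The promoters of 5 members are printed here, from RefSeq sequence on GRCm38.p6, 250 bases before to 50 after a RefSeq start site. That site can differ from a gene's outer start. The Spcs2 window lies inside the gene, whose outer start is at base 99863462 in the GENCODE annotation. The window of Srpr and those of Krtcap2 that hold CCACG, which are not printed, also lie inside their genes. They are shown for 3 of the genes past 1.3-fold in insulin-led cells and for 2 that hold the longer of the motifs below. Capitals mark CCACG, a core of the elements bound by the ER-stress factors XBP1 and ATF6, or the longer GCCACGT that contains it, on either strand.
Sec61b (chr4:47474411-47474710, plus strand): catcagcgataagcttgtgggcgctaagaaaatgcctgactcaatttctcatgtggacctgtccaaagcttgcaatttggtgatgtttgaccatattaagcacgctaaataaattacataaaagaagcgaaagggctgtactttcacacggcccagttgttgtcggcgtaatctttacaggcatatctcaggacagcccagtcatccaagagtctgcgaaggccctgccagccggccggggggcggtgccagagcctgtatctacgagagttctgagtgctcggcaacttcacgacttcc
Spcs2 (chr7:99858834-99859133, minus strand): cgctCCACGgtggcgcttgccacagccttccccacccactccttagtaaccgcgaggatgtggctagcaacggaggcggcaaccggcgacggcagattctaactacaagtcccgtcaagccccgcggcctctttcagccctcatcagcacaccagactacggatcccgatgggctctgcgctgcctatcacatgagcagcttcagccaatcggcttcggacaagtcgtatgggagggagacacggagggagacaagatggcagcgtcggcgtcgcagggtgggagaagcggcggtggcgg
Magt1 (chrX:106011753-106012052, minus strand): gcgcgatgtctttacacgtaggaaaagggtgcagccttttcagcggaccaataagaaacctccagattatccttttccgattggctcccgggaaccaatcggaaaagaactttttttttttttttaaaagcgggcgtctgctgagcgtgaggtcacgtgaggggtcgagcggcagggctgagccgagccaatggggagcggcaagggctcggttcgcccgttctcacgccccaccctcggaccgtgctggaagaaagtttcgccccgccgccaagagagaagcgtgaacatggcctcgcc
Ssr1 (chr13:37994159-37994458, minus strand): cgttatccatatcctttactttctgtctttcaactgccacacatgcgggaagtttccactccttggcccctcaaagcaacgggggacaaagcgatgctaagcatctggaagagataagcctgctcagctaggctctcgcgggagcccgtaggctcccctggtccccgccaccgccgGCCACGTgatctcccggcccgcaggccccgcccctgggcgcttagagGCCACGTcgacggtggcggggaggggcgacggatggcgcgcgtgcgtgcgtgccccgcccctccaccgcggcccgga
Sec63 (chr10:42761246-42761545, plus strand): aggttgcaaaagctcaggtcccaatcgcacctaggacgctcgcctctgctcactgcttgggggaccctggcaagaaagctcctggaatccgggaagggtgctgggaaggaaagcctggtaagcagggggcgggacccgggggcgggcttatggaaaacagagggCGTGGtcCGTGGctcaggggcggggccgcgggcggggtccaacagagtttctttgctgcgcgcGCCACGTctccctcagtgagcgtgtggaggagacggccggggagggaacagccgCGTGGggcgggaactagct

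Promoters were matched for 26 of the 35 genes, and those of Ostc, Sec11c, Sec61a1, Spcs3, Srp19, Srp68, Ssr2, Tram1 and Tusc3 were not matched. A gene was counted if any of its promoters held the motif, for members and for all genes alike. CCACG stood on either strand in 18 of the 26 (69.2%), among them Spcs2 but neither Sec61b nor Magt1. It stood in 35.5% of all 27025 genes with a promoter of this length. GCCACGT stood in 5 of the 26 (19.2%), namely Sec63, Spcs1, Srprb, Ssr1 and Ssr3, and in 2.95% of all genes. TGACGTGG, whose other strand contains CCACG, and TGACGTCA stood in 0 of the 26, and in 0.714% and 2.03% of all genes. The longer element known as ERSE stood in 0 of the 26, and ERSE-II, which overlaps the CCACG motif, in Krtcap2, against 0.137% and 0.0444% of all genes. The Krtcap2 window with ERSE-II lies inside the gene. The 5 genes with GCCACGT had library ratios in insulin-led cells of -0.019 for Sec63, 0.22 for Spcs1, -0.24 for Srprb, 0.14 for Ssr1 and -0.034 for Ssr3, so they did not share a direction. Xbp1 had a ratio of 0.10 there and Hspa5, the ER chaperone BiP, -0.45.

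Between hormone classes the machinery was lower in glucagon-led than in insulin-led cells of the same library. In the control library 16 of 35 genes were at least 1.3-fold lower and 0 higher, where 26.2% of all genes were lower and 14.9% higher; the median was -0.35, beside -0.11 over all genes. In the knockout-labelled library 12 of 35 were lower and 0 higher, where 20.9% and 13.5% of all genes were; the median was -0.19, beside -0.058. With each cell weighted equally that median was -0.02, beside -0.026 over all genes, so the lower level in the knockout-labelled library was not seen under that weighting, while the control median was -0.247. The median mitochondrial share was 1.37% in insulin-led and 3.27% in glucagon-led cells of the control library and 1.79% and 1.91% in the knockout-labelled library, and the acinar markers stood at 8.11 and 35.2 CPM and at 44.3 and 15.2. By gene, 8 acinar markers were higher and 0 lower in glucagon-led cells of the control library, and 3 were higher and 5 lower in the other. The part of these markers and of the mitochondrial share in the contrast was not tested. Serp1 showed the largest gap in the control library, with 295 in insulin-led and 159.8 CPM in glucagon-led cells, a ratio of -0.88 (95% interval -0.95 to -0.82), and -0.70 in the knockout-labelled library. Srp68 was at -0.72 and -0.71, Sec63 at -0.69 and -0.61, Srp9 at -0.71 and -0.46, Sec11c at -0.49 and -0.70, and Krtcap2 at -0.64 and -0.26. These gaps span the particle, the translocon and signal peptidase, and for 20 members the interval lay under no difference in both libraries. The share of all genes with such intervals was not counted.

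A few members went the other way. Tmem258 was at 0.12 and 0.15 and Ostc at 0.23 and 0.072, the 2 members whose intervals lay above no difference in both libraries. Stt3b was at 0.066 and 0.28. Rpn2 had 148 in insulin-led and 163 in glucagon-led control cells, but 203 and 178 in the knockout-labelled library. Its ratio was above 0 in the first library and under 0 in the second, and Ssr2 changed sign in the opposite sense (-0.15 and 0.25).

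Polypeptide-led cells differed from glucagon-led cells in this. In the control library 11 of 35 genes were at least 1.3-fold higher than in insulin-led cells and 2 lower, where 17.6% and 26.3% of all genes were. In the knockout-labelled library 4 were higher and 5 lower, where 15.3% and 23.2% were. Ddost had 344 and 329 CPM in polypeptide-led cells against 172 and 214 in insulin-led cells, ratios of 1.00 (95% interval 0.89 to 1.11) and 0.62 (95% interval 0.48 to 0.76). Tmem258 was similar, at 0.97 and 0.63. Srp68 was among the lowest in both libraries (-0.56 and -0.60). These cells number 115 and 106, with medians of 19000 and 12100 UMIs.

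Along the insulin bands most members rose. From band 1 to band 4 of the control library 11 of 35 genes were at least 1.3-fold higher and 3 lower, where 19.4% and 22.1% of all genes were, with a median of 0.23 beside -0.022. In the knockout-labelled library 13 were higher and 0 lower, where 17.1% and 12.7% were, with a median of 0.26 beside 0.015. On a scale of all UMIs, insulin included, these medians were -0.573 and -0.43, because the insulin share that defines the bands then enters every total; over all genes the medians were -0.828 and -0.683 on that scale. Without TMM the medians were 0.0667 and 0.143, beside -0.19 and -0.11 over all genes, and with each cell weighted equally 0.613 and 0.511, beside 0.041 and 0.077. The median mitochondrial share went from 2.15% in band 1 to 0.818% in band 4 of the control library and from 1.57% to 1.95% in the knockout-labelled library, and its part in the band ratios was not tested. The directions below are on the scale without hormone UMIs.

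Ssr4, a TRAP subunit, had the steepest rise of the members. It stood at 350.1, 414, 482 and 716 CPM in control bands 1 to 4 and at 374, 411, 517 and 696 in the knockout-labelled bands, band ratios of 1.03 (95% interval 0.97 to 1.09) and 0.90 (95% interval 0.84 to 0.95). Its library ratios were 0.095 (95% interval 0.035 to 0.16), -0.011, 0.10 (95% interval 0.054 to 0.15) and -0.042 in bands 1 to 4, above 0 beyond counting error in bands 1 and 3. Srp9 rose from 332 to 585 in the control library and from 340.2 to 443 in the other, so its libraries were level in band 1 and apart in band 4. Srp68 had band ratios of 0.86 and 0.45, Sec62 0.66 and 0.25, Serp1 0.57 and 0.51, and Dad1 0.50 and 0.38. Levels rose at every step in 14 members of the control and 16 of the knockout-labelled library, and fell at every step in 3 and 1. The other 18 members of each library did neither. The share of all genes that rose at every step was not counted.

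Of the 12 oligosaccharyltransferase genes, 5 fell from band 1 to band 4 of the control library with intervals under 0 (Stt3b, Rpn2, Magt1, Stt3a and Rpn1) and 5 rose with intervals above 0 (Tusc3, Dad1, Ost4, Ostc and Krtcap2). Stt3b fell at every step, through 84.5, 74.0, 64.4 and 42.7 CPM, a ratio of -0.98 (95% interval -1.18 to -0.79). In the knockout-labelled library it had 63.2, 62.4, 54.8 and 54.6, a ratio of -0.21 (95% interval -0.36 to -0.067). Rpn2 had 163, 157, 129 and 118 in the control library, a ratio of -0.47 (95% interval -0.59 to -0.34). It rose in the knockout-labelled library through 174, 189.7, 193 and 237, a ratio of 0.45 (95% interval 0.37 to 0.53). Magt1 fell through 178, 164, 147 and 129 in the control library, a ratio of -0.46 (95% interval -0.58 to -0.35), and had 215, 203, 195 and 232 in the other, a ratio of 0.10 (95% interval 0.03 to 0.18). Rpn1 (-0.23 and 0.30), Spcs3 (-0.15 and 0.46), Sec11c (-0.12 and 0.48) and Ssr1 (-0.16 and 0.17) also had opposite signs in the libraries. With each cell weighted equally, the control ratios of Rpn1, Spcs3 and Sec11c turned to 0.094, 0.015 and 0.44, so for these 3 the signs were no longer opposite. Rpn2 stayed at -0.44 under that weighting. On the scale of all UMIs the ratios of all 6 were negative in both libraries, and without TMM that of Magt1 in the knockout-labelled library was -0.018.

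The opposite signs also moved with cells that carry transcripts of other cell types. An acinar or immune marker UMI was present in 12.7% of band 1 and 15.2% of band 4 cells in the control library, and in 22.2% and 50.6% in the knockout-labelled library. In the cells without such a UMI, a restriction added after the data were seen, the band ratio of Rpn2 was -0.92 in the control and -0.19 in the knockout-labelled library. Magt1 was at -0.54 and -0.25, Rpn1 at -0.35 and -0.094, Spcs3 at -0.38 and -0.027, and Ssr1 at -0.19 and -0.26. For these 5 members both signs were then negative, and of the 6 only Sec11c stayed opposite, at -0.13 and 0.66. The knockout-labelled intervals of Rpn1 (-0.22 to 0.028) and Spcs3 (-0.18 to 0.12) included 0, so their signs there were not beyond counting error. Stt3b fell in both libraries there too, at -1.13 and -0.60, and Ssr4 rose alike, at 1.11 and 1.07. The restriction also takes shallower cells, since knockout-labelled band 4 cells with such a UMI had a median of 15324 UMIs and those without 8102, so marker content and depth cannot be told apart in it.

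**Figure D3:**
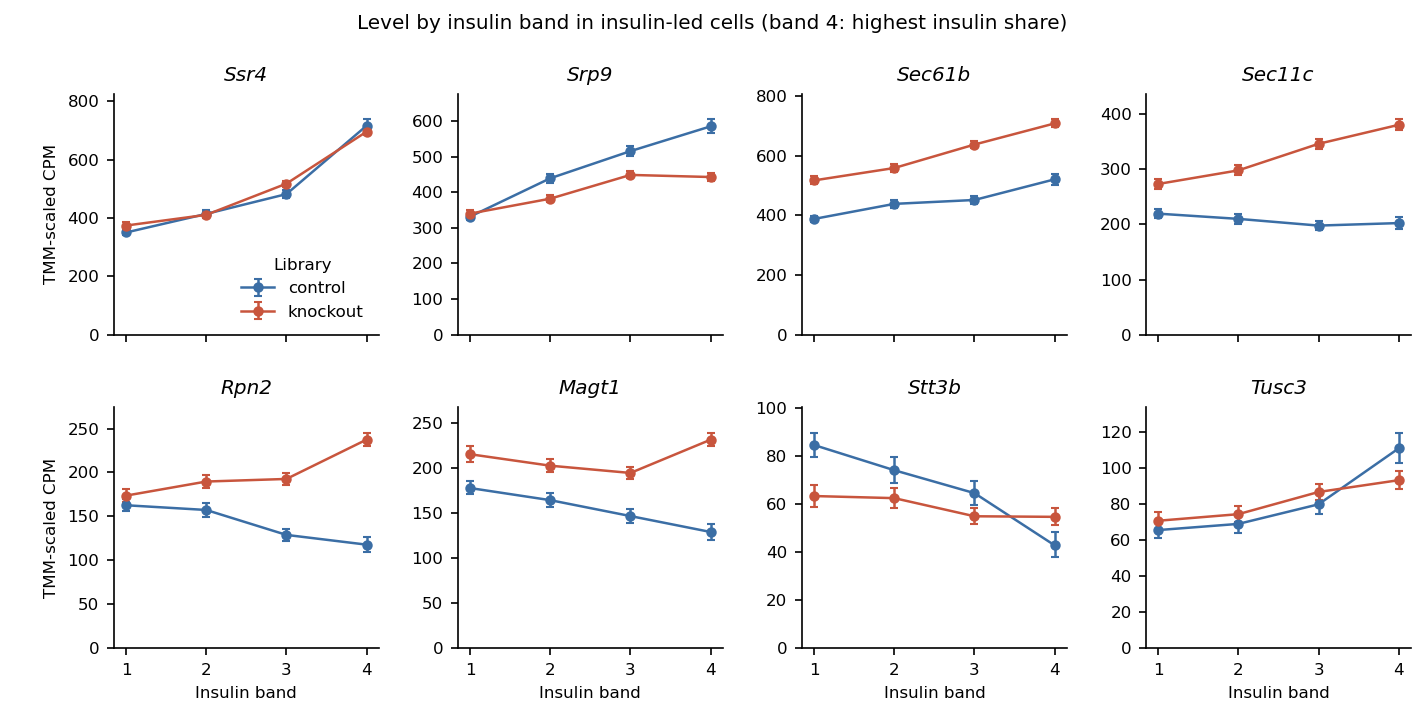
Level (CPM, axes from 0) in insulin bands 1 to 4 of insulin-led cells for 8 members in the control (blue) and knockout-labelled (red) library, with 95% counting intervals. Ssr4 rises alike in both libraries, Rpn2 and Magt1 fall in the control library only, and Stt3b falls most in the control library; in cells without an acinar or immune marker UMI, which are not drawn, Rpn2 and Magt1 fall in both.

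**Figure D4:**
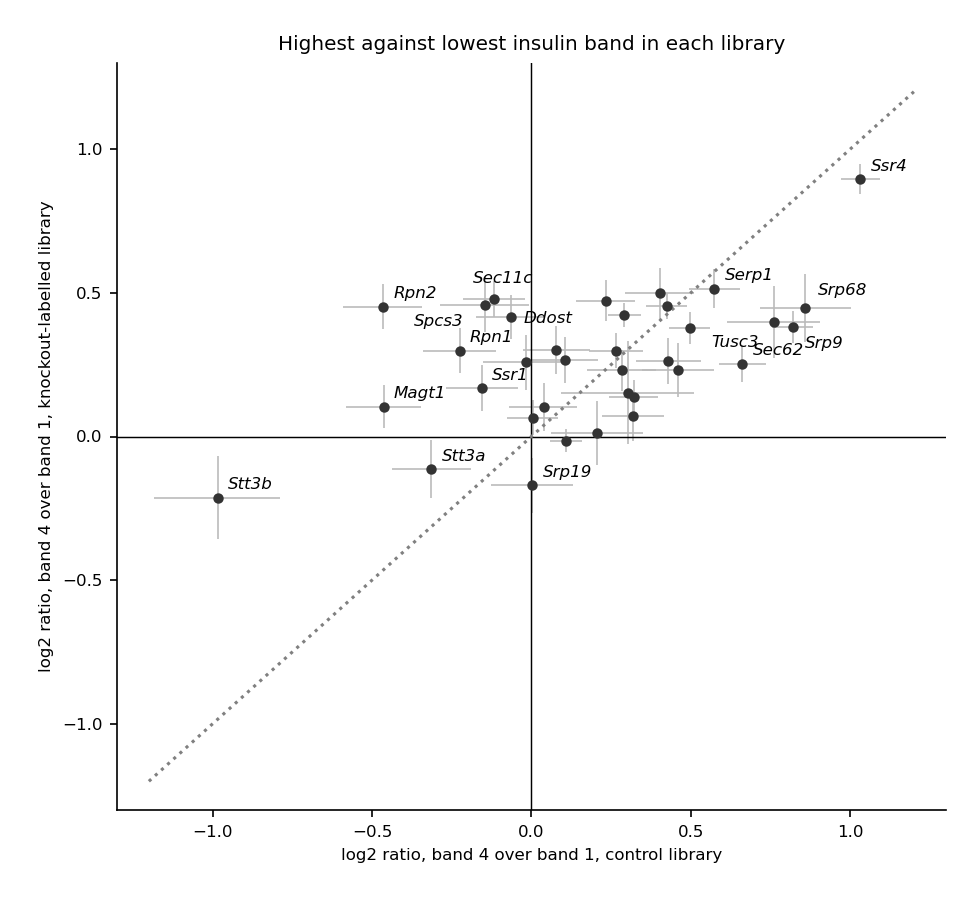
Log2 ratio of band 4 over band 1 in the control library (horizontal) and the knockout-labelled library (vertical) for the 35 genes, with 95% counting intervals and a dotted line of equal ratios. Ssr4 lies at the top right, Stt3b at the far left, and Rpn2, Magt1, Rpn1, Spcs3, Sec11c and Ssr1 at the upper left, where the signs are opposite. In cells without an acinar or immune marker UMI, which are not drawn, Sec11c is the only one of these 6 with opposite signs.

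In band 4, 11 of 35 genes were at least 1.3-fold higher in the knockout-labelled library and 1 lower, where 23.9% and 22.6% of all genes were, shares above those in bands 1 to 3. Rpn2 had 118 and 237 CPM, a ratio of 1.01 (95% interval 0.90 to 1.13), Sec11c had 202 and 381, a ratio of 0.91 (95% interval 0.82 to 1.00), and Magt1 had 129 and 232, a ratio of 0.84 (95% interval 0.73 to 0.96). Rpn1, Spcs3, Ostc and Ddost had ratios of 0.75, 0.72, 0.63 and 0.62, and Srp9 was lower at -0.40. In band 1 the ratio of Rpn2 was 0.094 and that of Sec11c 0.32, whereas Ostc (0.68) and Sec61b (0.41) were past 1.3-fold there. In band 4 cells without an acinar or immune marker UMI, Sec11c was at 1.10, Rpn2 at 0.79, Magt1 at 0.59, Rpn1 at 0.46, Ostc at 0.43 and Srp9 at -0.20, each in the direction seen with all cells. Of the other genes past 1.3-fold in band 4, Tmem258 went from 0.52 to 0.18 in those cells, Sec61b from 0.44 to 0.12, and Ssr1 from 0.44 to -0.011. Band 4 cells of the libraries also differed in depth, with medians of 8721 and 11330 UMIs and 2128 and 2887 genes, in mitochondrial share, 0.818% and 1.95%, and in immune markers, 33.0 and 143 CPM. The part of these differences was not tested.

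Members with paralogs can be compared inside a pair, which needs no scaling between libraries. Sec11c made up 69.1% (68.2 to 69.9) of Sec11c and Sec11a UMIs in control insulin-led cells and 76.5% (76.0 to 77.0) in the knockout-labelled ones, with 95% binomial (Clopper-Pearson) intervals. In band 4 the shares were 67.3% and 79.4%, and in glucagon-led cells 63.3% and 65.8%. The share was higher in the knockout-labelled library in each of these groups, but in glucagon-led cells the intervals overlapped (61.8 to 64.9 and 63.75 to 67.7). Magt1 made up 73.1% of Magt1 and Tusc3 UMIs in control band 1 and 53.8% in band 4, while in the knockout-labelled library it had 75.3% and 71.3%. In cells without an acinar or immune marker UMI the knockout-labelled share fell further between these bands. There Magt1 had 215 and 180 CPM and Tusc3 67.6 and 104 in bands 1 and 4. The control library had 174 and 120 for Magt1 and 66.1 and 115 for Tusc3. Stt3b made up 33.3% (32.3 to 34.4) of Stt3b and Stt3a UMIs in control and 32.9% (32.0 to 33.8) in knockout-labelled insulin-led cells, which overlap. It was 40.0% and 39.7% in glucagon-led cells, above the insulin-led cells of both libraries, and 26.4% and 32.1% in band 4.

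**Figure D5:**
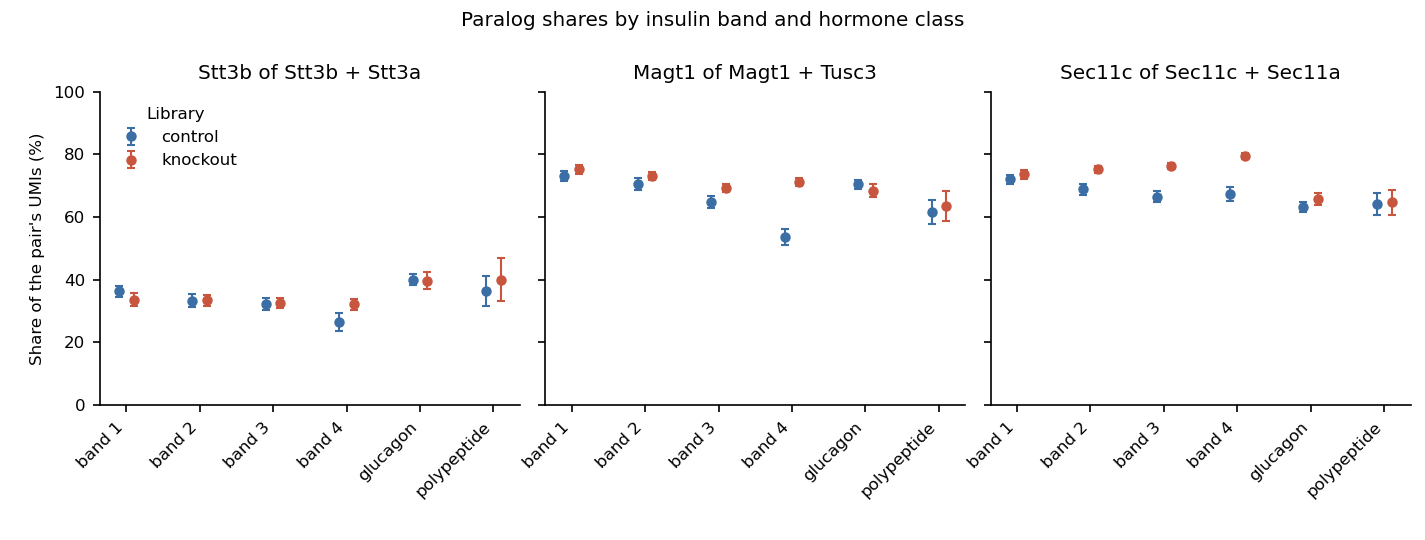
Share of a paralog pair's UMIs (percent, axis from 0 to 100) held by Stt3b, Magt1 and Sec11c in the insulin bands and in glucagon-led and polypeptide-led cells of the control (blue) and knockout-labelled (red) library, with 95% binomial intervals. The Magt1 share falls to 53.8% in control band 4, and the Sec11c share of the knockout-labelled library reaches 79.4% in its band 4. In cells without an acinar or immune marker UMI, which are not drawn, the knockout-labelled Magt1 share falls further along the bands.

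Neighbouring steps of the pathway were read from 5 lists of genes that are not members, with the library ratio in insulin-led cells. Of 19 genes compared that build the dolichol-linked sugar donor, 1 was 1.3-fold higher and 3 lower, with a median of -0.19; Alg2 had 48.0 and 64.1 CPM and Alg3 45.9 and 23.0, ratios of 0.41 and -0.999. Of 13 genes of glycan trimming and the calnexin cycle, 3 were higher, Uggt2 most at 0.77, and 1 lower, Mogs at -0.38, with a median of 0.17. The ER membrane protein complex had 1 of 10 higher (Emc9, 0.43) and 0 lower, tail-anchor insertion 0 of 6 either way, and other translocon-associated genes 0 of 13 either way. The 12.9% higher and 11.9% lower over all genes apply to these counts as well. In band 4, where 23.9% of all genes were higher and 22.6% lower, the trimming list had 7 of 13 higher and 0 lower, led by Uggt1, the folding sensor of the calnexin cycle, at 1.01. The donor list had 2 of 17 higher and 4 lower there, with Alg3 lowest at -1.25, and the ER membrane protein complex 1 of 10 higher and 4 lower, with Emc6 at -0.72. Tail-anchor insertion had 0 of 6 either way, and the other translocon-associated genes 3 of 13 higher and 2 lower.

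Some members stayed close between the libraries along the bands. Srpr ranged from -0.079 to 0.11 over the 4 bands, Srp14 from -0.0074 to 0.18, Krtcap2 from -0.19 to 0.0093 and Srp72 from -0.032 to 0.21. Krtcap2, Sec61g and Ssr4 were among the highest members in insulin-led cells of both libraries, and Srprb, Stt3b and Tusc3 the 3 lowest.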

How the data were processed

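Single-cell RNA was measured in islets of 2 mouse groups, 1 library each. Islets were cultured, dispersed with trypsin, cleared of dead cells and captured with the 10x 3′ v3.1 chemistry, per the labels' protocols. The authors deposited raw UMI counts for each gene and barcode, and per the file headers these come from Cell Ranger 6.0.0. In the submitters' processing notes the build is mm10, and R 4.1.1 and Seurat 4.1.0 are listed. How barcodes were called cells is not given in the sources used here. Doublets were not removed.

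Cells passed with 500 or more genes and no more than 15% mitochondrial UMIs, and were grouped by leading hormone. Cells with at least 5 UMIs from 3 genes of a mesenchymal, endothelial or immune list were called non-endocrine. Counts were summed per library and class and scaled with TMM factors relative to control insulin-led cells, computed in Python 3.11.15 with numpy 2.4.6, scipy 1.17.1 and pandas 2.3.3, a procedure tested on simulated data. Ratios have exact conditional, levels exact Poisson and shares Clopper-Pearson intervals at 95%. Backgrounds count every gene with a mean of at least 10 CPM (counts per a common total) and 20 UMIs. Clusters of insulin-led cells used scanpy 1.11.5 (2000 variable genes, 30 components, 15 neighbours, Leiden resolution 0.5). The members, gene lists and settings were chosen with earlier results of these data known. All 35 members could be named, each with its level in insulin-led cells, along with Ins1, Ins2, Gcg, Spop, Xbp1, Hspa5 and the extremes of each pathway list. Alternatives covered scaling, filters, gates, bands, depth, mitochondrial share and clusters.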

Additional observations from a re-analysis of the deposited data

Results flagged for a closer look

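The ratio of band 4 over band 1 had opposite signs in the control and the knockout-labelled library for 6 members, with both counting intervals on their own side of no difference. The knockout-labelled minus control difference of these log2 ratios was 0.918 for Rpn2, 0.605 for Spcs3, 0.595 for Sec11c, 0.568 for Magt1, 0.524 for Rpn1 and 0.323 for Ssr1. Rpn1 and Rpn2 are scaffold subunits of oligosaccharyltransferase and Spcs3 and Sec11c belong to signal peptidase. In insulin-led cells without an acinar or immune marker UMI the signs were opposite for Sec11c alone of the 6 (-0.13 and 0.66), and Rpn2 was at -0.92 and -0.19.

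The ratio of the knockout-labelled over the control library had opposite signs in insulin-led and glucagon-led cells for 7 members. The glucagon-led minus insulin-led difference was 0.423 for Ost4, 0.386 for Dad1, 0.377 for Krtcap2, 0.287 for Sec62, 0.254 for Srp9 and 0.183 for Serp1, and -0.185 for Sec61a1. The first 6 were lower in knockout-labelled insulin-led cells and higher in knockout-labelled glucagon-led cells. With cells thinned to 3000 UMIs the insulin-led ratio of Krtcap2 was 0.051 and that of Sec61a1 -0.0097, so their signs were then alike in both classes. In insulin-led cells without an acinar or immune marker UMI, Krtcap2 was at 0.056 and Sec61a1 at -0.11. These are the signs seen with all glucagon-led cells.

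The ratio of glucagon-led over insulin-led cells had opposite signs in the libraries for Ssr2, with a knockout-labelled minus control difference of 0.394, and for Rpn2, with -0.332. With each cell weighted equally Rpn2 was at 0.43 and 0.082, no longer opposite. Each group is 1 library, so none of these 15 differences was tested. The share of all genes with opposite signs was not counted.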

How the results depend on the processing

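Of 112 values under alternatives, 83 stayed within the margins set for a like result, 26 moved and 3 changed sign. Some of the 83 could not differ. All members passed the stricter minimum of 25 CPM, so its values equal the main ones. The count lower at 1.5-fold was fixed at 0 by the 0 at 1.3-fold. The glucagon-led library median (0.225) and the control hormone contrast (-0.347) stayed within those margins under all 8 alternatives run for each. The minimum of 25 CPM was among the 8. The split at 2% mitochondrial UMIs, the clusters and the removal of cells with acinar or immune marker UMIs were not. Those were run for insulin-led cells only. On a scale of all UMIs the band medians were -0.573 (control) and -0.43 (knockout-labelled), by construction, since insulin UMIs enter the total. Without TMM the band medians were 0.0667 (control) and 0.143 (knockout-labelled). With each cell weighted equally the band medians were 0.613 and 0.511 and the knockout-labelled hormone contrast -0.02. The insulin-led library median was 0.261 in cells at 2% to 15% mitochondrial UMIs, and within clusters -0.269 (cluster 1), 0.289 (cluster 2), 0.606 (cluster 5) and 0.0111 (cluster 6). The count of 6 members at least 1.3-fold higher was 2 at 1.5-fold, 2 in band 1, 2 in band 2, 11 in band 4, 2 under and 10 over 2% mitochondrial UMIs, 2 without acinar or immune marker UMIs (added after the data were seen), and 1, 2, 25 and 3 in clusters 1, 3, 5 and 6. The count of 0 lower was 1 in each of bands 1, 3 and 4, 1 without those marker UMIs, and 8, 3 and 6 in clusters 1, 4 and 6. The cause of these shifts was not tested. Thinning to 3000 UMIs left out 853 control and 1998 knockout-labelled insulin-led cells. The lowest members, such as Srprb, are the least precise. No paired analysis was possible because the labels give no replicate numbers.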
